A study of Mus musculus with 2 samples.

Results

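The cells described here are CD4 T cells of mouse MC38 tumours that carried RNA of the tissue chemokine receptor Cxcr6, the nuclear receptor Rora or the costimulatory receptor Tnfrsf4 (OX40). They were chosen from raw counts of unique molecular identifiers (UMIs, each standing for 1 captured RNA molecule) in every cell barcode of 2 single-cell libraries. A member had at least 2 UMIs of Cd3d, Cd3e and Cd3g together, at least 1 of Cd4, 0 of Cd8a, Cd8b1 and Foxp3, and at least 2 of Cxcr6, Tnfrsf4 and Rora together. C1qa, C1qb and C1qc, which are macrophage genes, had to make up less than 0.1% of the barcode's UMIs. The rule found 281 members among 25200 barcodes, 59 in the PBM library and 222 in the Control library.

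CD4 T cells that have met antigen in lymph nodes lose the lymph node homing receptor CCR7 and enter tissue as effector cells. CXCR6 binds CXCL16, a chemokine made by myeloid cells, and marks T cells that settle in tissues and tumours. RORα is a nuclear receptor expressed by several kinds of tissue effector lymphocyte, OX40 and ICOS are induced by T cell receptor stimulation and bind ligands on antigen-presenting cells, and IL18R1 is the binding chain of the IL-18 receptor. In mm10 coordinates, RefSeq places Cxcr6 on chromosome 9 from 123806477 to 123811754, Rora on chromosome 9 from 68653404 to 69388246 and Tnfrsf4 on chromosome 4 from 156013595 to 156016613.

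Both libraries came from C57BL/6 mice labelled WT bearing MC38 tumours under the skin (MC38 is a colon carcinoma line of that strain). In the PBM group, treatment was given daily from day 7 (the labels do not expand PBM), and the other group is labelled Control; tumours were collected on day 14. After enzymatic digestion of the tumours (20 min), CD45+ immune cells were sorted, although the labels list the cell type as tumor cells. Cells of a condition were pooled into 1 library, the number of mice is not given, and so treatment, pool and library cannot be told apart.

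With 1 library per condition there is no replicate, and no test between conditions was possible. Intervals below are exact 95% intervals for counting error only. The PBM library held 13962 barcodes and the Control library 11238. Members had a median of 5864 UMIs in PBM (1531 to 22278) and 4487 in Control (1011 to 118422), for totals of 390634 and 1423213 UMIs. Levels are UMIs of a gene per 1000000 UMIs of all members of a library (CPM). A gene was compared where it had at least 20 UMIs over both sides, and a difference of at least 2-fold is called past the fold.

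Members made up a smaller share of the cells in PBM than in Control. They were 0.423% of all barcodes in PBM (0.322 to 0.545%) and 1.98% in Control (1.73 to 2.25%). Among T barcodes they were 0.623% in PBM and 7.07% in Control. CD4 T barcodes without Foxp3 or Cd8 UMIs, the population the rule draws from, made up 11.5% of T barcodes in PBM and 10.3% in Control, and 7.78% of all barcodes in PBM and 2.87% in Control. Within that population the members were 59 of 1086 in PBM, or 5.43% (4.16 to 6.95%), and 222 of 322 in Control, or 68.9% (63.6 to 74.0%). The CD4 T barcodes outside the rule had a median of 5499 UMIs in PBM and 3786 in Control. After every barcode was thinned to 1000 UMIs before the rule was applied, the difference in this share was −46.6 percentage points, against −63.5 without thinning. The limit on C1q genes removed 0 candidates in PBM and 17 in Control. Before it, the limit of 0 Cd8 UMIs took Cd4-carrying T barcodes from 2657 to 1220 in PBM and from 770 to 601 in Control. The effect of that unequal loss on the shares was not tested. Neighbouring populations had the same direction: Foxp3-carrying CD4 T barcodes were 1.41% of T barcodes in PBM and 7.42% in Control, and CD8 T barcodes with the same minimum of the 3 genes (at least 1 Cd8 UMI, 0 of Cd4 and Foxp3), called effector CD8 T barcodes below, were 5.28% in PBM and 25.5% in Control.

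The genes that chose the members are given here as a description only. Cxcr6 had a UMI in 19 of 59 members in PBM (32.2%) and in 161 of 222 in Control (72.5%). Rora had one in 33.9% in PBM and 50.5% in Control, and Tnfrsf4 in 74.6% and 76.1%. In PBM the choice therefore rested mostly on Tnfrsf4: 42.4% of PBM members carried Tnfrsf4 alone, against 13.1% of Control members, and all 3 genes were seen in 2 PBM and 57 Control members. The sum of the 3 genes had a median of 3 UMIs per member in PBM and 7 in Control. Just inside the threshold, with exactly 2 UMIs, were 22 PBM members (37.3%) and 29 Control members (13.1%). Just outside it, with 1 UMI, were 135 PBM and 30 Control barcodes.

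**Figure D1:**
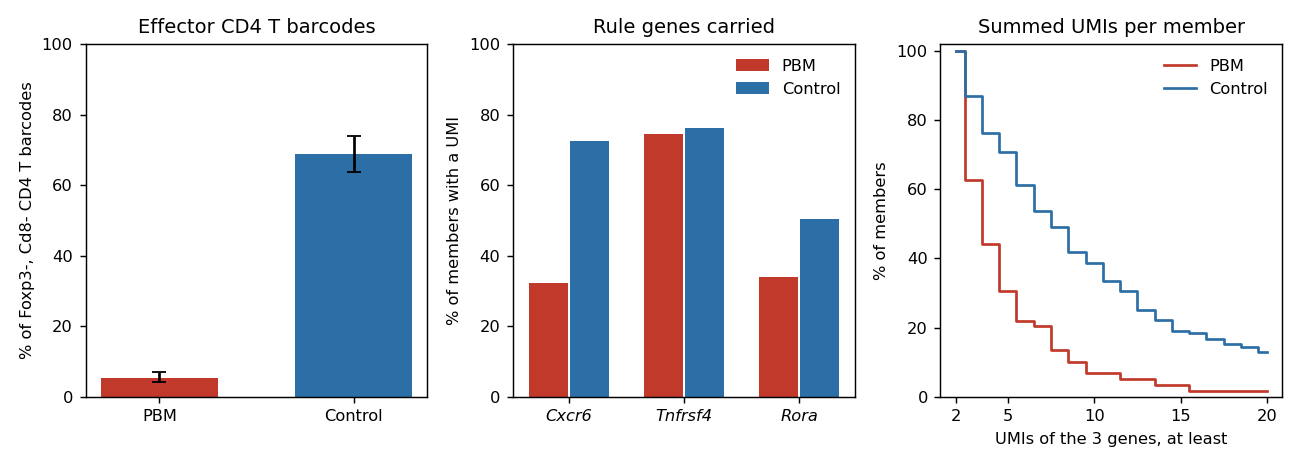
Left, members as a percentage of CD4 T barcodes without Foxp3 or Cd8 UMIs, with exact 95% intervals. Middle, percentage of members with a UMI of each gene of the rule. Right, percentage of members with at least the number of summed Cxcr6, Tnfrsf4 and Rora UMIs on the x axis. Members are 5.43% in PBM and 68.9% in Control, and the PBM curve drops faster, with 44.1% of PBM and 76.1% of Control members at 4 or more UMIs.

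The label was checked against genes outside the rule. Icos, which no part of the rule used, stood at 417 CPM in PBM members and 561 in Control members, against 55.2 CPM in the other CD4 T barcodes in PBM and 134 in Control. Il18r1 stood at 79.4 CPM in PBM members and 110 in Control members, against 20.0 and 50.1 CPM in the other CD4 T barcodes. The 6 label markers, most of them genes of the rule, summed to 1567 CPM in PBM and 2754 CPM in Control members. In Foxp3-carrying CD4 T barcodes they summed to 1261 and 4272 CPM, so they do not by themselves set the members apart from regulatory T cells. T cell receptor beta constant genes had a UMI in 59 of 59 PBM and 219 of 222 Control members, against 64.0% and 20.1% of B barcodes. After thinning to 1000 UMIs the shares were 89.8% and 84.7%, against 26.1% and 6.37% of B barcodes. The rule already required Cd3 UMIs, so this is not an independent check. The effector part of the label was less clear in PBM, where 45 of 59 members (76.3%) carried a UMI of Tcf7, a factor of naive and memory cells, against 67 of 222 in Control (30.2%). Thinned to 1000 UMIs these shares were 35.6% and 8.56%, against 5.80% and 0% of B barcodes. Trav11, the alpha chain segment of invariant natural killer T cells, had 0 UMIs in both. It also had 0 UMIs in the other CD4, Foxp3-carrying and B barcodes of both libraries. The libraries count 3' ends, so this absence cannot decide whether such cells were among the members. Zbtb16, their defining factor, had a UMI in 1 PBM and 2 Control members. The name is kept for the Control members, while the PBM members are best described as CD4 T barcodes with Tnfrsf4, Rora or Cxcr6.

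RNA of other cell types was present and differed between the libraries. Of 5 natural killer markers, Ncr1 and Klra8 were at 0 in PBM members, and the 5 summed to 17.9 CPM in PBM and 296 CPM in Control members. Of 8 macrophage and monocyte markers, C1qa, C1qb, C1qc, Csf1r and Adgre1 were at 0 in PBM members, and the 8 summed to 87.0 CPM in PBM and 2583 CPM in Control members. Cd79a, Cd79b or Ms4a1, which are B cell genes, had a UMI in 47 of 59 PBM members and 8 of 222 Control members. Sparc, Col1a2 or Dcn, genes of fibroblast-like cells, had one in 0 PBM and 41 Control members. Those 41 held 36.3% of the Control members' UMIs. B barcodes themselves numbered 2138 in PBM and 204 in Control. The 6 markers of regulatory T cells other than Foxp3, which the rule sets to 0, summed to 658 CPM in PBM and 424 CPM in Control members, against 201 and 196 CPM in the other CD4 T barcodes and 1336.5 and 2527 CPM in Foxp3-carrying CD4 T barcodes. The part of these other cell types in the results below was not tested.

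Among 7534 genes compared between PBM and Control members, 409 (5.43%) were higher and 1273 (16.9%) lower in PBM past the fold, with a median log2 ratio of −0.08. The minimum of 20 UMIs is a sum over both libraries, and Control members held more UMIs (1423213 against 390634). A gene high in Control thus passes it at a lower CPM than a gene high in PBM. At a minimum of 1 UMI, 1502 genes were higher and 1700 lower. The costimulatory receptors and ligands had a list median of −0.64, with 1 of 14 genes higher and 5 lower past the fold. Icos was 417 CPM in PBM and 561 in Control (log2 ratio −0.43, −0.68 to −0.18). Cd28, the main costimulatory receptor of naive cells, was 195 CPM in PBM and 189 in Control, a log2 ratio of 0.04 (−0.35 to 0.41). The activation-induced receptors of the TNF receptor family were lower in PBM: Tnfrsf18 (GITR) was 246 CPM in PBM and 499 in Control (log2 ratio −1.02), and Tnfrsf9 (4-1BB) was 71.7 CPM in PBM and 438 in Control (−2.61, −3.21 to −2.07). Cd27, a receptor that is lost on terminal effector cells, ran the other way, at 248 CPM in PBM and 59.7 CPM in Control (2.06, 1.62 to 2.49). Among the 20 PBM and 137 Control members without Il2ra, Ikzf2 or Izumo1r UMIs, genes shared with regulatory T cells (an alternative added after seeing the data), the ratio of Cd27 was 0.40, no longer past the fold.

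Inhibitory receptors split. Pdcd1 (PD-1) was 58.9 CPM in PBM and 97.0 CPM in Control (log2 ratio −0.72, −1.42 to −0.08), and Ctla4 was 143 CPM in PBM and 220 CPM in Control (−0.62). Havcr2 (TIM-3), a gene of exhausted cells, was 5.12 CPM in PBM and 54.8 CPM in Control. Btla and Cd200, which B and follicular helper cells also use, were higher in PBM: Btla was 105 CPM in PBM and 15.5 CPM in Control (2.76), and Cd200 was 136 CPM in PBM and 30.2 CPM in Control (2.17). The direction of Cd200 turned, to −0.48, among members without Il2ra, Ikzf2 or Izumo1r UMIs. Btla stood at 130 CPM in B barcodes of the PBM library and 91.0 CPM in those of Control. Over the 9 inhibitory receptors compared, 2 were higher and 3 lower past the fold.

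Among 22 cytokine receptor genes, 2 were higher and 5 lower past the fold. Il2rb, the beta chain shared by the IL-2 and IL-15 receptors, was 151 CPM in PBM and 415 CPM in Control (log2 ratio −1.46). Ifngr1, the ligand-binding chain of the interferon-gamma receptor, was 35.8 CPM in PBM and 345 CPM in Control (−3.27, −4.15 to −2.51). Il12rb2, the signalling chain of the IL-12 receptor, was 10.2 CPM in PBM and 63.9 CPM in Control (−2.64). The common gamma chain Il2rg was 737 CPM in PBM and 524 CPM in Control (0.49).

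Of 13 effector and exhaustion transcription factors compared, 8 were lower and 3 higher past the fold in PBM members, with a list median of −1.41. Tbx21 (T-bet), the Th1 factor, was 12.8 CPM in PBM and 63.9 CPM in Control (−2.32, −3.98 to −1.05). Id2, which supports effector differentiation, was 325 CPM in PBM and 1017 CPM in Control (−1.65), and Bhlhe40 was 25.6 CPM in PBM and 164 CPM in Control (−2.68). Id3, the counterpart of Id2 in resting and memory cells, was 138 CPM in PBM and 6.32 CPM in Control (4.45, 3.42 to 5.65), with 152 and 32.2 CPM in B barcodes. Tox was 146 CPM in PBM and 44.3 CPM in Control (1.72). Gata3, the Th2 factor, and Maf, a factor of several helper and regulatory cells, were close: Gata3 was 125 CPM in PBM and 104 CPM in Control (0.27, −0.23 to 0.75), and Maf was 218 CPM in PBM and 231 CPM in Control (−0.09, −0.45 to 0.26).

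By single barcodes, most members showed at most 1 of the 3 lineage factors Tbx21, Gata3 and Bcl6. Gata3 had a UMI in 23 of 59 PBM and 80 of 222 Control members, Tbx21 in 5 PBM and 58 Control members, and Bcl6 in 3 PBM and 24 Control members. None of the 3 was seen in 30 PBM and 95 Control members. In B barcodes, the background used here, Tbx21 had a UMI in 1.36% in PBM and 0.980% in Control, and Gata3 in 1.54% and 1.47%. These barcodes were chosen to have no Cd3 UMIs, so they may understate free T cell RNA. The median depths of the B barcodes were 3948 and 2764 UMIs. Whether B cells themselves express these factors was not tested. Thinned to 1000 UMIs, Gata3 had one in 11.9% of PBM and 13.5% of Control members, against 0.468% and 0.980% of B barcodes, above these B barcodes in both libraries. Tbx21 had one in 9.91% of Control members after thinning and in 0 of 59 PBM members, for which the exact interval reaches 6.06%. Its share in PBM members thus cannot be told from the 0.561% of PBM B barcodes at this depth. Il17a and Il17f, the Th17 cytokines, had 0 UMIs in both libraries' members.

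**Figure D2:**
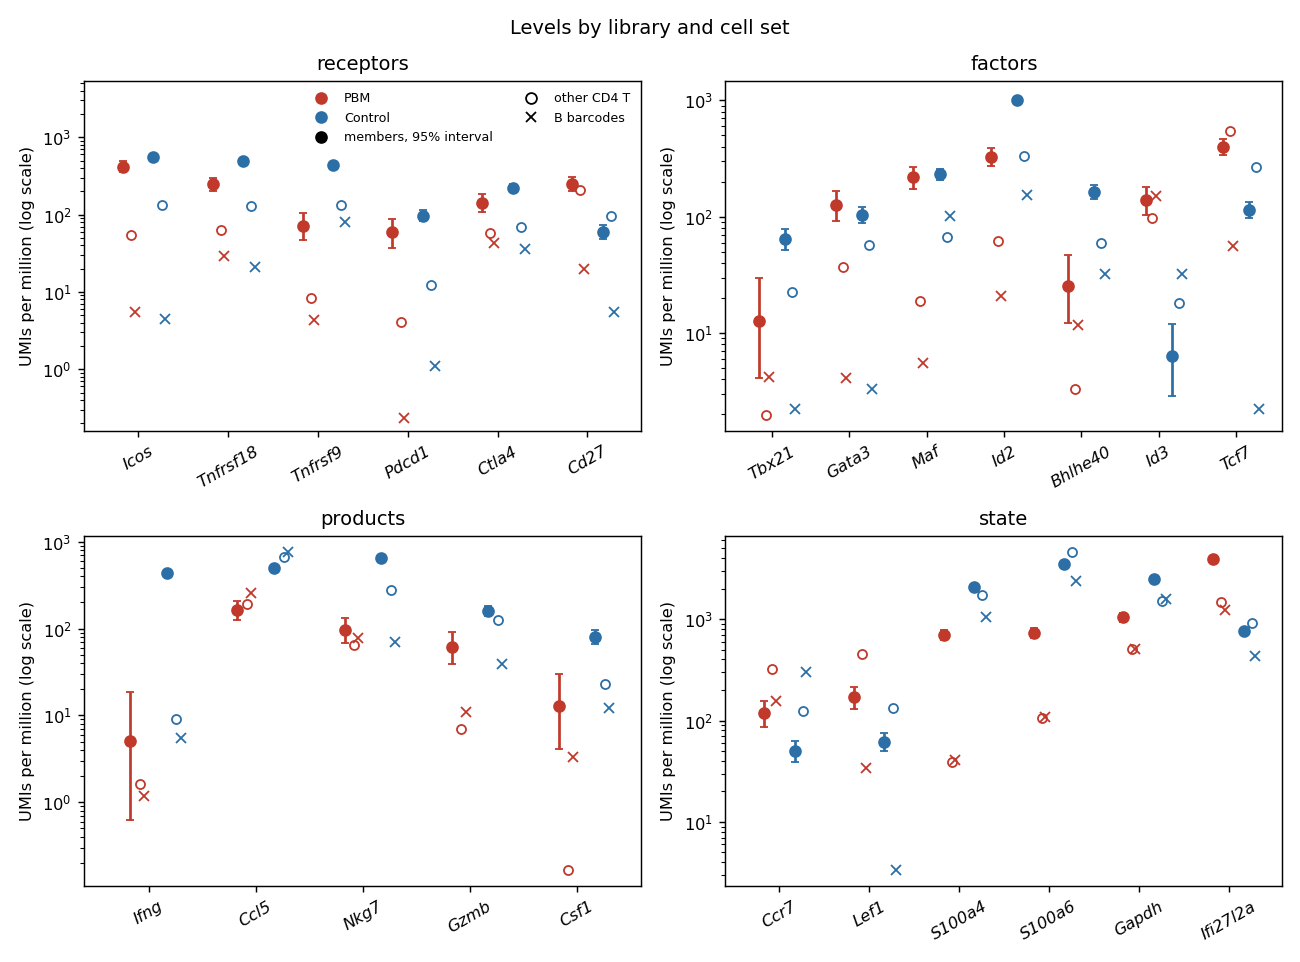
Levels in CPM on a log axis of receptors, transcription factors, secreted products and cell state genes. Filled points are members with 95% Poisson intervals, open points are other CD4 T barcodes and crosses are B barcodes, with PBM in red on the left of each pair and Control in blue, and values of 0 are not drawn. Tnfrsf9, Tbx21, Id2, Ifng and Nkg7 lie lower in PBM members, Id3, Lef1 and Tcf7 lie higher, and Icos, Gata3 and Maf lie close together.

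Most cytokine, chemokine and cytotoxic genes compared were lower in PBM members. Ifng, the main Th1 cytokine, had 2 UMIs in PBM members (5.12 CPM) and 626 in Control members (440 CPM), a log2 ratio of −6.42 (−9.47 to −4.57). A UMI of Ifng was seen in 2 of 59 PBM members and 62 of 222 Control members; thinned to 1000 UMIs these were 1 and 18. Much of the Control level came from 1 barcode of 13623 UMIs, which held 61.2% of the members' Ifng UMIs, 90.4% of the Ccl3 UMIs and 77.3% of the Ccl4 UMIs. Without the richest barcode of each library, Ifng was 2.57 CPM in PBM and 172 CPM in Control, and with every barcode weighted equally the log2 ratio was −4.40. Ccl3, a chemokine for monocytes and T cells, was 5.12 CPM in PBM and 643 CPM in Control, of which 62.4 CPM was left without that barcode. Ccl4 was 7.68 CPM in PBM and 1086 CPM in Control, of which 249 CPM was left. The direction was thus the same without the barcode, and the sizes were not.

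Of 11 cytokine genes, 0 were higher and 7 lower in PBM past the fold. Tnf was 23.0 CPM in PBM and 52.7 CPM in Control (log2 ratio −1.19, −2.38 to −0.19), and Csf1, a growth factor of macrophages, was 12.8 CPM in PBM and 80.1 CPM in Control (−2.65). Cd40lg, the helper ligand for B and dendritic cells, was 76.8 CPM in PBM and 68.2 CPM in Control (0.17, −0.47 to 0.78), and Ltb was 643 CPM in PBM and 504 CPM in Control (0.35). The interval of the helper ligand spans equality, while those of Tnf and Csf1 do not. Of 16 cytotoxic genes, 0 were higher and 13 lower past the fold, with a median of −2.59. Nkg7, a granule protein, was 97.3 CPM in PBM and 648 CPM in Control (−2.74), against 78.7 and 71.0 CPM in B barcodes, so that the PBM level lay close to that of B barcodes of its library. The summed lists were lower in PBM in B barcodes too: cytotoxic genes summed to 1323 CPM in PBM and 3306 CPM in Control members, and to 919 and 1776 CPM in B barcodes, and chemokine genes to 228 and 2599.8 CPM in members, and to 323 and 2116 CPM in B barcodes. The part of this background in the members' ratios was not tested. Gzmb was 61.4 CPM in PBM and 159 CPM in Control (−1.37). Gzmd had 0 UMIs in PBM members and 163 in Control members (115 CPM), at least 14.9-fold lower in PBM when 3 UMIs are taken as the floor. In the members without Il2ra, Ikzf2 or Izumo1r UMIs, the cytotoxic median was −0.93 and the Ifng ratio −2.20.

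**Figure D3:**
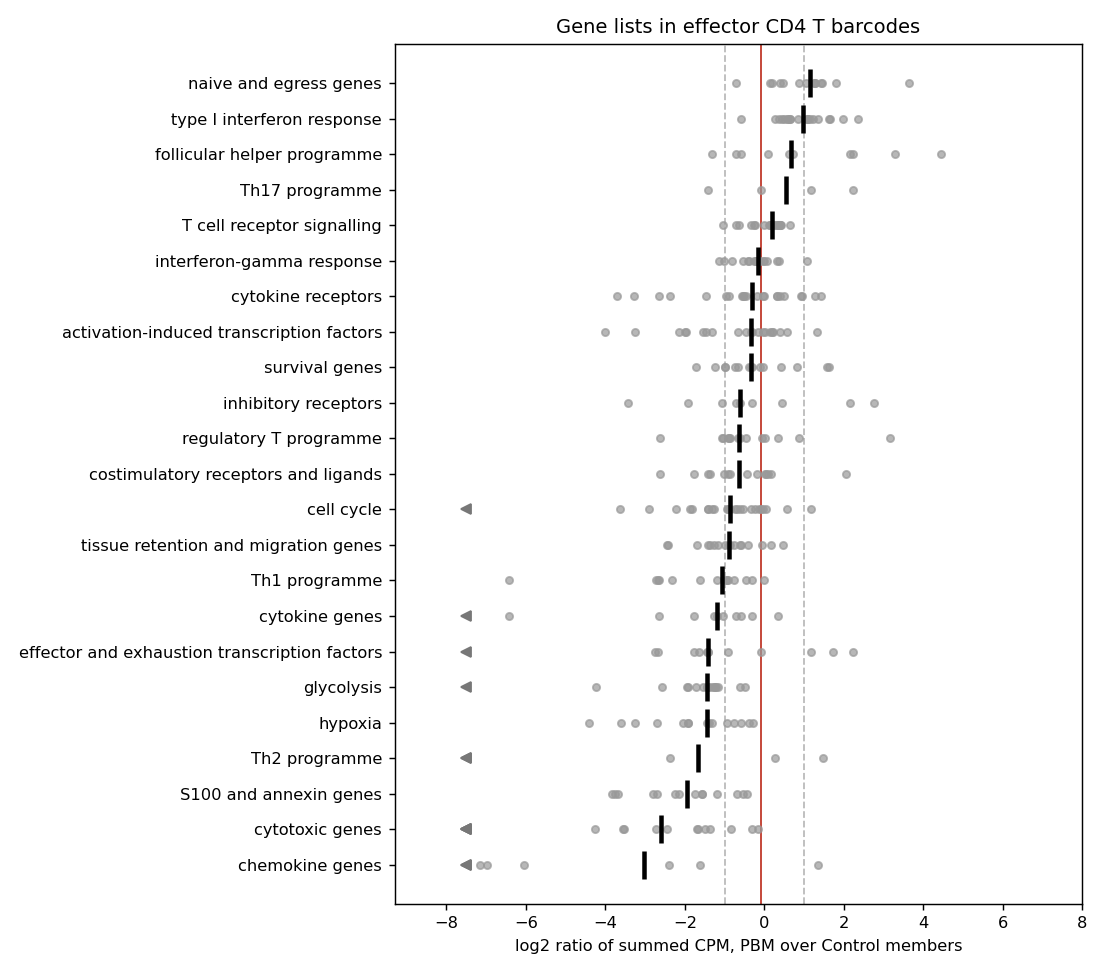
Log2 ratio of PBM over Control members for the genes of each list (grey points), the list median (black tick) and the median of all 7534 genes compared (red line); dashed lines mark 2-fold and triangles mark genes with 0 UMIs in PBM members. Naive and egress genes lie to the right, at a median of 1.14, and chemokine, cytotoxic and S100 genes lie to the left, at −3.04, −2.59 and −1.94.

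Genes of naive cells and of exit from tissue were higher in PBM members. Of 14 such genes, 8 were higher and 0 lower past the fold, with a median log2 ratio of 1.14. Tcf7 (TCF1) was 397 CPM in PBM and 114 CPM in Control (1.80), and Lef1, its relative, was 169 CPM in PBM and 61.8 CPM in Control (1.45). Ccr7 was 118 CPM in PBM and 49.9 CPM in Control (1.24), and S1pr1, the receptor for leaving tissue toward lymph, was 99.8 CPM in PBM and 48.5 CPM in Control (1.04). In B barcodes Tcf7 was 55.7 CPM in PBM and 2.22 CPM in Control and Lef1 was 33.7 and 3.33 CPM, below the members, whereas Ccr7 was 157 CPM in PBM and 299.7 CPM in Control, above them. Among members with B and myeloid RNA under 0.1% each, 51 in PBM and 137 in Control, the naive median was 1.31. Genes of tissue retention and migration had a median of −0.90, with 0 of 17 higher and 7 lower: Rgs1 was 87.0 CPM in PBM and 280.4 CPM in Control (−1.69), and Cd44, an adhesion receptor raised on effector cells, was 110 CPM in PBM and 263 CPM in Control (−1.26). Cd69, which opposes S1PR1 at the cell surface, was 69.1 CPM in PBM and 49.9 CPM in Control (0.47, −0.23 to 1.13).

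Genes of T cell receptor signalling differed little. Of 20, only Themis was lower past the fold (−1.04) and none was higher, with a median of 0.19, which was −0.46 after thinning. Glycolysis genes had a median of −1.43, with 15 of 17 lower, and hypoxia genes one of −1.44, with 10 of 15 lower. S100 and annexin genes, which rise in effector and memory T cells, had a median of −1.94, with 11 of 14 lower: S100a4 was 699 CPM in PBM and 2066 CPM in Control, and S100a6 was 732 CPM in PBM and 3496 CPM in Control. These shifts also ran through B barcodes, where S100 and annexin genes summed to 1451 CPM in PBM and 11374 CPM in Control, against 5468 and 17584 CPM in members. Glycolysis genes summed to 3712 CPM in PBM members and 9281 CPM in Control members, and to 1956 and 6808 CPM in B barcodes. The ratio between libraries was thus not confined to the members, and its source was not tested. The summed Control levels also include 41 members with Sparc, Col1a2 or Dcn UMIs, which held 36.3% of the Control members' UMIs. The 6 Control members of more than 20000 UMIs held 23.7%. Under the 15 alternatives, which include leaving out members with Sparc, Col1a2 or Dcn UMIs, the S100 and annexin median lay between −3.08 and −1.39.

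Cell cycle genes had a median of −0.87, with 1 of 25 higher and 10 lower past the fold. That median was 0.05 when each barcode had equal weight and −0.01 when each was thinned to 1000 UMIs, and 6 Control members of more than 20000 UMIs held 23.7% of the Control members' UMIs. Mki67 or Top2a, proliferation genes, had a UMI in 14 of 59 PBM members (23.7%) and 53 of 222 Control members (23.9%). Genes of the type I interferon response had a median of 0.96, with 10 of 20 higher and 0 lower, and the median was 0.21 after thinning. Ifi27l2a alone, an interferon-induced gene, was 3876 CPM in PBM and 757 CPM in Control (2.36, 2.24 to 2.47), of list sums of 5540 and 1710 CPM, so that most of the summed PBM level was 1 gene. The list summed to 2705 CPM in PBM and 1281 CPM in Control B barcodes. In the other CD4 T barcodes it summed to 3201 CPM in PBM and 2020 CPM in Control. The direction was thus not confined to the members, and its source was not tested. Genes of the interferon-gamma response had a median of −0.17, with 1 of 19 higher and 2 lower.

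The genes with the widest differences, by the naming rule given with the processing, were partly genes of other cells. Higher in PBM were the B cell genes Cd79a, Ly6d and Cd79b. Cd79a was 256 CPM in PBM members and 2.11 CPM in Control members, against 3071 and 1676 CPM in B barcodes. Next came Id3, Dapl1, Izumo1r, Btla, Tbc1d4, Rflnb, Ifi27l2a, Tspan32 and Nsg2. Izumo1r (folate receptor 4), found on regulatory, anergic and follicular helper CD4 T cells, was 320 CPM in PBM and 35.8 CPM in Control (log2 ratio 3.16), with 8.78 and 2.22 CPM in B barcodes. Tbc1d4, a GTPase-activating protein, was 189 CPM in PBM and 34.4 CPM in Control (2.46), and Dapl1, a gene of naive T cells, was 141 CPM in PBM and 11.2 CPM in Control (3.65).

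Lower in PBM were the myeloid genes Arg1, Spp1, Lyz2 and Fn1, the chemokines Ccl4, Ccl3 and Ccl1, and Ifng, Mt1, Ifitm1, Lmna and Nupr1. Arg1 was 2.56 CPM in PBM members and 1116 CPM in Control members, against 16.6 and 3924 CPM in B barcodes. Ifitm1, an interferon-induced membrane protein, had 0 UMIs in PBM members and 467 CPM in Control members, at least 60.8-fold lower. Limiting the ranking to genes whose level in members reached that over all barcodes, a choice made after seeing the data, removed Cd79a, Ly6d, Cd79b and Dapl1 from the higher side and brought in Cd200, Cd27, Cd7 and Tcf7. On the lower side it removed Arg1, Spp1, Lyz2, Fn1, Mt1, Lmna and Nupr1 and brought in the myeloid genes Chil3 and Ear2 together with Penk, Hist1h2ae, Bgn, Tubb3 and Cald1. Under the alternatives, with sums of 0 set to 3 UMIs, the smallest log2 ratio was −1.56 for Bgn and −0.95, inside the fold, for Cald1. For Chil3 it was 0, the value set where the floor of the side without UMIs was not below the other side's level. Members with Sparc, Col1a2 or Dcn UMIs numbered 41 in Control and 0 in PBM. Whether the genes of this ranking are RNA of the members themselves was not tested. Penk, which encodes the opioid precursor proenkephalin, was 5.12 CPM in PBM and 168 CPM in Control, with 0 UMIs in the other CD4 T barcodes of both libraries.

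The CD4 T barcodes outside the rule, compared in the same way, showed many of these shifts too: 944 of 9986 genes (9.45%) were higher and 1465 (14.7%) lower in PBM than in Control past the fold. Their naive and egress genes had a median of 1.39, against 1.14 in members, and their cytotoxic genes one of −1.98, against −2.59. The Th1 programme had a median of −2.04 outside the rule and −1.08 in members, and S100 and annexin genes −4.32 outside the rule and −1.94 in members. Whether members and other CD4 T barcodes shifted to a different extent was not tested.

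Against the other CD4 T barcodes of the same library, the members of both had more RNA of receptors such as Icos, Il2ra and Tnfrsf18. In PBM, 867 of 9632 genes (9%) were higher and 771 (8%) lower past the fold, and in Control 582 of 8024 (7.25%) and 336 (4.19%). Ranked by the smaller of the 2 ratios, the leading genes were Ebi3, Icos, Il2ra, Tnfrsf18, Batf, Eea1, Maf, Serpinb6b, Tnfrsf9 and Cd82. Icos was higher by a log2 ratio of 2.92 in PBM (2.64 to 3.19) and 2.07 in Control (1.75 to 2.40). Batf, an AP-1 factor of activated T cells, was higher by 2.08 in PBM and 1.91 in Control, and Il2ra (CD25) by 1.99 in PBM and 1.98 in Control. Ebi3, a subunit of IL-27 and IL-35, was higher by 2.57 in PBM (1.64 to 3.43) and 3.63 in Control (2.03 to 5.93), and Pdcd1 by 3.84 in PBM and 3.00 in Control. Lower in both were Dapl1, Ccr7, Hagh, Rasgrp2, Tyrobp, Hmga1, Lat2, Lef1, Klra4 and Gzma. For 4 of these the direction turned in 1 library: with B and myeloid RNA under 0.1% each, Tyrobp was 0.87 in PBM, and Gzma was 3.23 and Lat2 0.033 in Control, and against barcodes with 0 UMIs of the 3 genes Klra4 was 0.30 in Control. Ccr7 had a log2 ratio of −1.44 in PBM and −1.32 in Control, and Lef1 one of −1.43 in PBM and −1.11 in Control. Of 4401 genes ranked, 50 were higher and 13 lower past the fold in both libraries.

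By lists, the costimulatory genes had a median over the other CD4 T barcodes of 1.22 in PBM and 1.54 in Control, the Th1 programme 1.66 in PBM and 1.13 in Control, activation-induced transcription factors 0.18 in PBM and 0.47 in Control (3 and 4 of 20 higher past the fold), and naive and egress genes −0.85 in PBM and −0.73 in Control, beside all-gene medians of 0.11 in PBM and 0.06 in Control. The regulatory T programme had the widest list median in PBM, at 2.56, with 12 of 12 genes higher past the fold, against 9% of all genes. Its genes summed to 1265 CPM in PBM members, 331 CPM in other CD4 T barcodes and 2252 CPM in Foxp3-carrying ones. In Control those sums were 1637, 869 and 5931 CPM. The Th17 and Th2 programmes had PBM medians of 2.21 and 1.83, over 4 and 3 genes. Some lists were far from the all-gene median in PBM and near it in Control. S100 and annexin genes had a median of 1.81 in PBM and −0.06 in Control (0.35 with thinning): S100a4 was 699 CPM in PBM members and 39.1 CPM in the other PBM CD4 T barcodes, against 2066 and 1734 CPM in Control. Ccr2, a chemokine receptor of monocytes and effector T cells, had a log2 ratio of 3.36 in PBM and −0.02 in Control. Of the cytokine genes, Tnf was higher by 4.12 in Control (2.21 to 7.19), against 1.35 in PBM (0.15 to 2.38). Under the alternatives, the cytokine list median lay between 0.35 and 2.31 in Control and between 0.93 and 1.21 in PBM. The 2 libraries' contrasts were not tested against each other.

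**Figure D4:**
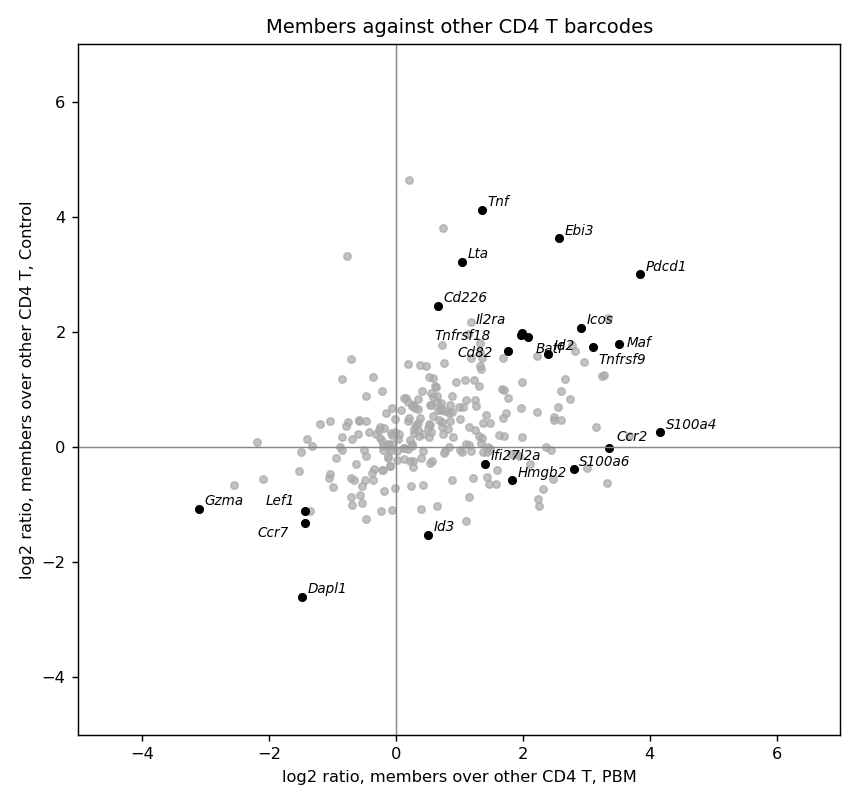
Log2 ratio of members over other CD4 T barcodes, in PBM (x axis) and Control (y axis), for the genes of the lists. Icos lies at 2.92 in PBM and 2.07 in Control, Il2ra and Batf lie near 2 on both axes, Ccr7 and Lef1 lie below −1 on both, and S100a4 lies at 4.16 in PBM and 0.25 in Control.

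Against Foxp3-carrying CD4 T barcodes, 237 of 6082 genes (3.9%) were higher and 352 (5.79%) lower in PBM members, and 484 of 9141 (5.29%) higher and 604 (6.61%) lower in Control members. Genes of the regulatory T programme had a median of −1.05 in PBM, with 7 of 14 lower, and −1.85 in Control, with 13 of 17 lower. Il2ra had a log2 ratio of −2.20 in PBM and −3.34 in Control, and Icos one of −0.04 in PBM and −1.48 in Control. Pdcd1 was higher by 2.89 in PBM and 1.5 in Control, and Cd40lg by 1.32 in PBM and 4.24 in Control. Against effector CD8 T barcodes, 917 of 9333 genes (9.83%) were higher and 704 (7.54%) lower in PBM members, and 535 of 11573 (4.62%) higher and 720 (6.22%) lower in Control members. Cytotoxic genes were lower past the fold in 7 of 15 in PBM and 12 of 18 in Control. Maf was higher by 4.20 in PBM and 3.13 in Control, and Cd40lg by 4.19 in PBM and 3.45 in Control. Ifng in Control members (440 CPM) was close to that in effector CD8 T barcodes (431 CPM), although 1 barcode held most of the members' share.

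The members varied among themselves. Those with a Cxcr6 UMI numbered 19 in PBM and 161 in Control, and those without one 40 and 61. In Control, members with Cxcr6 had a higher cytotoxic list, with a median log2 ratio of 1.30 and 10 of 16 genes higher past the fold, and a lower naive list, at −0.74 with 6 of 13 lower, beside an all-gene median of 0.02, with 10.6% of 6788 genes higher and 7.69% lower past the fold. Klrd1 (CD94) was 215 CPM with Cxcr6 and 38.8 CPM without, and Klrk1 (NKG2D) 112 CPM with and 9.70 CPM without. Ccr7 was 26.9 CPM with Cxcr6 and 133 CPM without, and Cd27 29.6 CPM with and 168 CPM without. In PBM, Id2 was 598 CPM with Cxcr6 and 124 CPM without (2.26), Ccl5 284 CPM with and 75.5 CPM without (1.91), and Il18r1 127 CPM with and 44.4 CPM without (1.51). Tnfrsf18 and Gata3 ran the other way in PBM, at −1.14 and −1.35. These splits use a gene of the rule, so a member without Cxcr6 carried Tnfrsf4 or Rora by construction.

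Il2ra or Ikzf2, genes of regulatory T cells, had a UMI in 23 of 59 PBM members and 69 of 222 Control members, against 10.4% and 23.0% of the other CD4 T barcodes and 74.6% and 91.8% of Foxp3-carrying ones. In PBM, the members with these genes had 396 CPM of Cd27 against 147 CPM without, 321 CPM of Maf against 147 CPM, and 94.3 CPM of Id2 against 484 CPM. Cd7, a gene of T and innate-like lymphocytes, was 37.7 CPM in those with them and 203 CPM in those without. These levels are sums over 23 and 36 barcodes, and whether the genes occur in the same barcodes was not tested.

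Per barcode, the ranges of the 2 libraries overlapped for each list, while the medians lay apart. S100 and annexin genes took a median of 26.5 of 10000 UMIs in PBM members (0 to 261) and 124 in Control members (18.4 to 419). Glycolysis genes took 26.7 in PBM and 75.5 in Control. Naive and egress genes took 18.4 in PBM (3.89 to 54.2) and 7.26 in Control (0 to 72.3), and cytotoxic genes 11.4 in PBM (0 to 52.3) and 28.1 in Control (0 to 318).

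**Figure D5:**
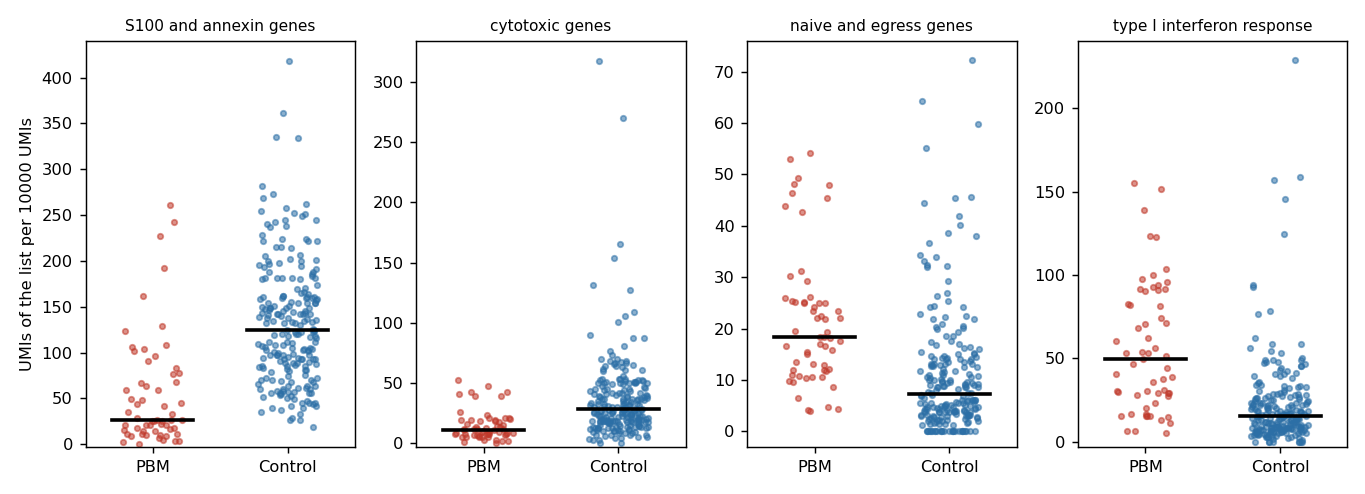
UMIs of 4 gene lists per 10000 UMIs of each member (points), PBM on the left and Control on the right; the bar is the median. The PBM points lie lower for S100 and cytotoxic genes and higher for naive and interferon genes, with overlapping ranges.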

How the data were processed

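The deposited files were 1 sparse matrix of raw UMI counts per library, with its barcodes and genes; per the submitters' processing notes these counts came from Cell Ranger 7.2.0 and mm10, while the file header names PISA 0.12. Both are given because the sources differ. The libraries were made with the Chromium 3' kit 3.1, per the labels' protocols, so a level is a count of 3' ends and is not scaled by gene length. No column belonged to other samples (0).

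Counts were read with Python 3.11.15, numpy 2.4.6, scipy 1.17.1, pandas 2.3.3 and scanpy 1.11.5; figures used matplotlib 3.10.9. Members and lists were chosen with earlier results of these data known. No further filter on barcodes was applied. Scrublet (0.8% expected doublets per 1000 barcodes, seed 0) called 6.30% of PBM and 0.970% of Control barcodes, among them 2 PBM and 1 Control members, which were kept. The expected rates were 11.2% in PBM and 8.99% in Control, so the calls fell short of them, most in Control. Of barcode names, 1991 occur in both libraries, 0 of them among members. UMIs were summed over members, and ratios carry exact intervals conditional on the summed counts. B barcodes, with at least 2 UMIs of Cd79a and Cd79b together and 0 of Cd3d, Cd3e and Cd3g, served as the background for free RNA. Barcodes with free Cd3 RNA were thus left out, so this set may understate free T cell RNA. The size of that effect was not tested. For shares of cells, each barcode was thinned to 1000 UMIs; no member fell below that depth. The comparison step was tested on simulated counts.

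Genes named from all genes were, between PBM and Control, the 12 widest log2 ratios in each direction with at least 50 UMIs, at least 100 CPM in the higher library and an interval excluding 0. Against other CD4 T barcodes they were the 10 in each direction with the widest smaller ratio over both libraries. Genes of the rule and ribosomal, mitochondrial, antigen receptor and predicted genes were left out, as were genes not reported here; members of the 23 gene lists were also named. Alternatives changed the rule, depth, scaling, filters and free RNA.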

Additional observations from a re-analysis of the deposited data

Results flagged for a closer look

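For 3 named genes the members lay on opposite sides of the other CD4 T barcodes in the 2 libraries, with intervals for counting error that leave out equality; the difference between the libraries was not tested. Cd7 was higher in members in PBM, with a log2 ratio of 1.37 (0.92 to 1.79), and lower in Control, at −0.89 (−1.51 to −0.27). Id3 was higher in PBM, at 0.51 (0.08 to 0.91), and lower in Control, at −1.53 (−2.95 to −0.16). Ifi27l2a was higher in PBM, at 1.40 (1.32 to 1.48), and lower in Control, at −0.29 (−0.43 to −0.14). In Control, Id3 rested on 9 UMIs over all members.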

How the results depend on the processing

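Each library stands for 1 condition, so no replicate could be left out. No paired analysis was possible because there is 1 library per group. Depth limits single genes in the 59 PBM members, where 1 UMI is 2.56 CPM. All values below are PBM minus or over Control unless another comparison is named. The share of members among all barcodes differed by −1.55 points. It was −1.45 with at least 3 UMIs of the 3 genes, −0.853 with at least 1, −1.30 with Cxcr6 required, −1.10 without Il2ra or Ikzf2, −0.854 with B and myeloid RNA under 0.1% each and −0.491 with thinning before the rule. In the same order, the share among CD4 T barcodes (−63.5) was −56.5, −60.4, −48.3, −44.2, −37.9 and −46.6. Apart from thinning, the denominators stayed those of the main rule, so a filter that removes members lowers these shares by itself. With B and myeloid RNA under 0.1% each, 51 PBM and 137 Control members were left. The same limit left 849 PBM and 51 Control barcodes of the other CD4 T barcodes. Of 333 list medians of PBM over Control under the alternatives, 283 lay within 0.5 of the one given on the log2 scale and 12 had the opposite sign; of 85 medians over other CD4 T barcodes in each library, 78 in PBM and 70 in Control lay within 0.5, and 4 and 7 had the opposite sign.

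The counts of genes past the fold (409 higher, 1273 lower) were 107 higher and 325 lower with thinning, and 136 and 613 at a minimum of 50 UMIs. At a minimum of 1 they were 1502 higher and 1700 lower. Among alternatives chosen after seeing the data, they were 842 lower without Sparc, Col1a2 or Dcn, 258 higher and 831 lower in members of 3000 to 12000 UMIs, and 842 lower without Il2ra, Ikzf2 or Izumo1r. Against other CD4 T barcodes, PBM had 416 lower with thinning and 497 higher at 50 UMIs. Control had 876 higher against barcodes with 0 UMIs of the 3 genes, 258 higher and 75 lower with thinning, and 232 and 92 at 50 UMIs. Thinning and stricter minimums leave fewer genes to compare; for the rest the cause was not tested.

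Between PBM and Control, the medians that changed sign were the follicular helper median, at −0.48 without Il2ra, Ikzf2 or Izumo1r, where Cd200 was also −0.48 and cytokine receptors were 0.11; the Th2 median, at 0.48 with B and myeloid RNA limited and 0.10 without Sparc, Col1a2 or Dcn; the Th17 median (0.54), at −0.055 with at least 3 UMIs of the 3 genes, −0.44 without Sparc, Col1a2 or Dcn and −0.049 with equal weight per barcode; T cell receptor signalling (0.19), at −0.46 with thinning and between −0.086 and −0.056 under the other 3; and the cell cycle, at 0.055 with equal weight. Il18r1 (−0.47) was 0.22 with Cxcr6 required and 0.13 without Il2ra, Ikzf2 or Izumo1r. Against other CD4 T barcodes with that RNA limited, Tyrobp was 0.87 in PBM, and Gzma 3.23 and Lat2 0.033 in Control; Klra4 was 0.30 in Control against barcodes with 0 UMIs of the 3 genes. The cause was not tested.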
